A study of Homo sapiens with 9 samples.

Results

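The genes that build ribosomes were followed in A549, an established human line of lung adenocarcinoma cells, kept for 7 days with a drug that blocks protein arginine methylation. A fixed set of 46 ribosome biogenesis and nucleolar genes was taken by gene symbol, and all 46 were found among the 51796 gene identifiers of the count table. The set held 8 genes of RNA polymerase I and its initiation factors, 7 core proteins of small nucleolar ribonucleoproteins (snoRNPs), 4 nucleolar phosphoproteins and scaffolds, 16 small subunit assembly factors, 10 large subunit assembly factors, and MYC. GSK591 blocks PRMT5, which makes most symmetric dimethylarginine. MS023 blocks the type I methyltransferases, PRMT1 among them, which make the asymmetric form. Control cells received DMSO, the solvent. Each drug was given at 1 µM. There were 3 libraries in each of the groups GSK591, MS023 and DMSO, made from total RNA depleted of ribosomal RNA. All groups were the same unmodified line, bought for the study, in the same medium with serum. Plates for GSK591 and for MS023 were seeded with 0.4 times 1e5 cells and DMSO plates with 0.2 times 1e5 cells. Seeding and treatment cannot be told apart in either comparison with DMSO. The labels describe RNA taken in triplicate without naming separate cultures, so the p-values cover only how these libraries vary, which may be technical. In bulk RNA, fewer cells of a kind and less RNA per cell cannot be told apart.

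Ribosomes are assembled in the nucleolus, where RNA polymerase I transcribes a long precursor of ribosomal RNA. Small nucleolar ribonucleoproteins guide the methylation and pseudouridylation of that precursor, the small subunit processome folds and cuts its first part, and a separate set of factors matures the large subunit. MYC is a transcription factor known to drive many of these genes, and growing cancer cells depend on them. Fibrillarin (FBL) and nucleolin (NCL) are themselves known to carry methylated arginines placed by PRMT1, a type I enzyme.

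The libraries held between 31398075 and 51244525 counts. The 46 genes together took 5906 to 6048 counts per 1000000 in GSK591 libraries, 5920 to 5950 in MS023 libraries and 6013 to 6270 in DMSO libraries, before any scaling. The lowest count of a member in any library was 419, for BOP1, and the highest was 59339, for NPM1, so every member was far above the filter for low counts. Mitochondrial ribosomal RNA, left over from depletion, reached 927.5 per 1000000 in GSK591 replicate 3 and 0.4009 to 20.06 per 1000000 in the other libraries. Its part in the results was not tested. The epithelial markers of the labelled cell type were present: KRT8 stood at 4083 ± 98.5 CPM in GSK591, 2576 ± 19.3 CPM in MS023 and 2984 ± 86.5 CPM in DMSO, and KRT18, KRT19, CDH1 and EPCAM also passed the filter. Their levels differed between groups: EPCAM averaged 6.43 ± 0.233 CPM in GSK591, 21.0 ± 1.44 CPM in MS023 and 13.5 ± 1.57 CPM in DMSO, and KRT19 163 ± 1.96 CPM in GSK591, 56.2 ± 2.14 CPM in MS023 and 52.1 ± 7.02 CPM in DMSO. Of 5 leukocyte markers, PTPRC, CD3E and LYZ did not pass the filter, CD79A averaged at most 0.33 ± 0.123 CPM and CD14 at most 8.27 ± 0.635 CPM. Of 5 fibroblast and endothelial markers, PDGFRB and VWF did not pass the filter, PECAM1 was not matched, COL3A1 averaged at most 3.89 ± 0.362 CPM, and COL1A1 averaged 7.18 ± 0.789 CPM in GSK591, 25.1 ± 1.46 CPM in MS023 and 11.7 ± 0.839 CPM in DMSO. The part of these differences in the results was not tested.

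Levels of different genes were compared per gene length, as FPKM (fragments per kilobase per 1000000 mapped) from the authors' deposited tables. NPM1, nucleophosmin, was the highest in every group, at 757 ± 37.8 FPKM in GSK591, 889 ± 12.2 FPKM in MS023 and 959 ± 19.4 FPKM in DMSO (SD, n = 3 each here and below). Nucleolin followed at 445 ± 10.1 FPKM in GSK591, 524 ± 20.2 FPKM in MS023 and 519 ± 37.8 FPKM in DMSO, and fibrillarin at 213 ± 3.09 FPKM in GSK591, 267 ± 22.9 FPKM in MS023 and 308 ± 15.4 FPKM in DMSO. NOP10, a small box H/ACA protein, was next at 148 ± 5.66 FPKM in GSK591, 169 ± 12.05 FPKM in MS023 and 172 ± 5.16 FPKM in DMSO. These ranks were the same in all 3 groups, and in DMSO each of these genes lay clear of the next in all libraries. Most other neighbours in the order overlapped between libraries, among them NHP2 at 142 ± 13.9 FPKM and NOP56 at 142 ± 7.39 FPKM in DMSO. The lowest levels were those of UTP20, with 9.77 ± 0.882 FPKM in GSK591, 7.78 ± 0.395 FPKM in MS023 and 9.41 ± 0.121 FPKM in DMSO, and RRP1, with 8.25 ± 0.122 FPKM in GSK591, 8.29 ± 0.411 FPKM in MS023 and 7.43 ± 0.664 FPKM in DMSO. NOP2 was of rank 9 in GSK591, at 63.8 ± 1.72 FPKM, and of rank 19 in both other groups, in MS023 at 37.5 ± 2.29 FPKM and in DMSO at 38.7 ± 1.28 FPKM. Summed over the members, mean FPKM came to 2966.1 in GSK591, 3185.6 in MS023 and 3410.7 in DMSO, a description that NPM1, NCL and FBL dominate.

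**Figure D1:**
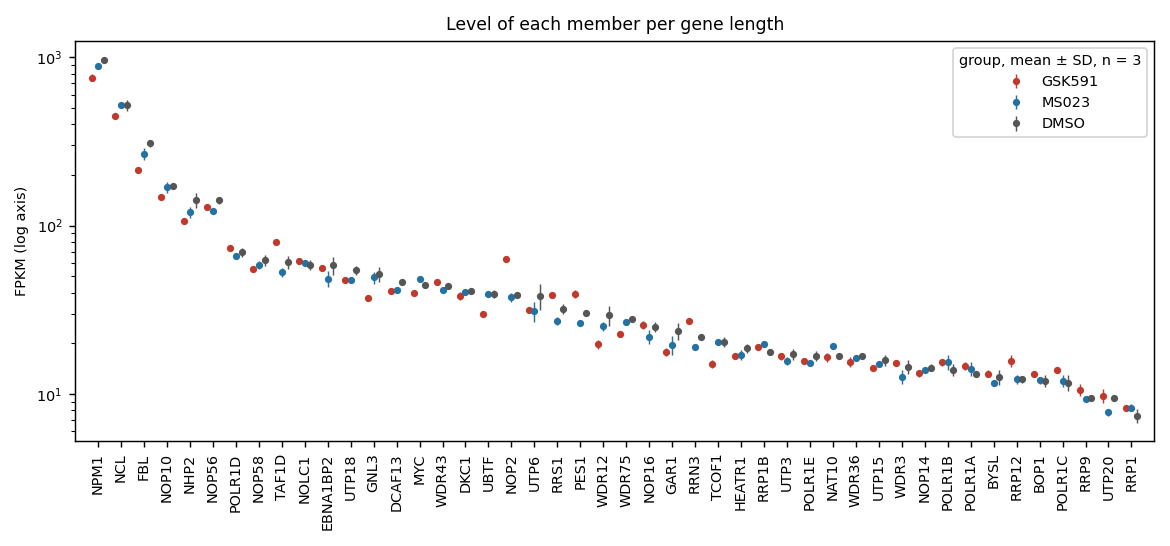
Mean FPKM ± SD (n = 3) on a log axis of the 46 ribosome biogenesis and nucleolar genes in GSK591 (red), MS023 (blue) and DMSO (dark grey), ordered by the level in DMSO. NPM1, NCL, FBL and NOP10 lead in every group, and NOP2 stands out in GSK591 at 63.8 FPKM, against 37.5 in MS023 and 38.7 in DMSO.

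With GSK591, the set moved in both directions. Of the 46 genes, 14 rose and 22 fell against DMSO, and 10 did not pass the test (edgeR quasi-likelihood, adjusted p under 0.05 over the 18292 genes tested). Over all genes tested, 62.6% were called, 30.1% higher and 32.4% lower, so the share of members that rose (30.4%) was close to the background and the share that fell (47.8%) was above it. The changes were small: fitted log2 changes ranged from -0.51 for GNL3 to 0.68 for NOP2, with a median of -0.09 beside 0.01 over all genes. Their median size was 0.15, beside 0.33 over all genes. The genes tested include genes at levels below those of every member, such as CD79A. No background at the members' own levels was counted, here or below. The 3 GSK591 libraries lay above all 3 DMSO libraries for 14 members and below them for 22. Over all genes tested 65.6% did not overlap between these groups, 32.0% above and 33.6% below. By role, 5 of 8 polymerase I genes rose and 2 fell (median log2 change 0.23), and no snoRNP core gene rose while 6 of 7 fell (median -0.21). Of the scaffolds 1 of 4 rose and 3 fell (median -0.22), of the small subunit factors 4 of 16 rose and 8 fell (median -0.06), and of the large subunit factors 4 of 10 rose and 2 fell (median 0.12). Scaled by total counts in place of TMM, which moved the median of all genes by 0.06, the split of members was 18 higher and 13 lower.

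With MS023, the changes were mostly decreases. Of the 46 genes, 4 rose and 22 fell against DMSO and 20 did not pass, where 51.0% of all genes tested were called, 25.1% higher and 25.9% lower. The members were thus called higher less often (8.70%) and lower more often (47.8%) than the table as a whole, a description without a test of its own. Fitted log2 changes ran from -0.30 for UTP6 to 0.16 for RRP1, with a median of -0.08 beside 0.00 over all genes and a median size of 0.13 beside 0.24. The libraries did not overlap for 4 members above and 23 below DMSO, where 57.5% of all genes did not overlap, 28.4% above and 29.1% below. No polymerase I gene and no snoRNP core gene rose, while 4 of 8 and 4 of 7 fell (median log2 changes -0.09 and -0.18). Of the scaffolds only NPM1 fell, of the small subunit factors 1 of 16 rose and 8 fell (median -0.11), and of the large subunit factors 2 of 10 rose and 5 fell (median -0.11). The 4 that rose were NAT10, RRP1, RRP1B and MYC. Their number was 1 without MS023 replicate 2 or 3, where RRP1B alone stayed called, and 2 without DMSO replicate 2 or 3 or with the replicate numbers as a block.

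Set directly against each other, MS023 and GSK591 differed for 31 of the 46 genes, with 13 higher and 18 lower in MS023, where 65.4% of all genes tested were called, 33.6% higher and 31.7% lower. The share of members called, 67.4%, was near that background. The median log2 difference was -0.04 beside 0.00 over all genes, and the range was -0.65 for NOP2 to 0.46 for TCOF1. Libraries did not overlap for 13 members above and 21 below GSK591, where 70.5% of all genes did not overlap, 36.1% above and 34.5% below. Polymerase I genes were mostly lower in MS023 than in GSK591 (5 of 8 lower, 1 higher, median -0.21), and snoRNP core genes were higher where they differed (3 of 7, none lower, median 0.12). Any difference among the 3 groups passed an F-test for 42 members (background 78.1%), and NOP58, NOLC1, BOP1 and RRP1 did not pass it.

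Both comparisons with DMSO share the same DMSO libraries, so their values are set side by side without a test of likeness. The genes that fell with both inhibitors were POLR1D, FBL, NOP56, NHP2, GAR1, NPM1, NOP14, UTP6, UTP18, HEATR1, DCAF13 and WDR12, 12 in all. RRN3, TAF1D, WDR3, PES1 and RRS1 rose with GSK591 and fell with MS023, and each was lower in MS023 than in GSK591 in the direct test. MYC did the opposite, and RRP1B rose with both. NOP10, BYSL and BOP1 were not called with either inhibitor in this fit, and some alternative runs did call each of them with 1 inhibitor. Among all genes tested, 62.6% were called with GSK591 and 51.0% with MS023. The share of all genes with each joint pattern was not counted, so these counts are not read as a trait of the set. The call of WDR3 with GSK591 rested on an adjusted p of 0.0445 and was lost in several settings given with the small subunit factors, as were some of the 12 shared decreases.

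**Figure D2:**
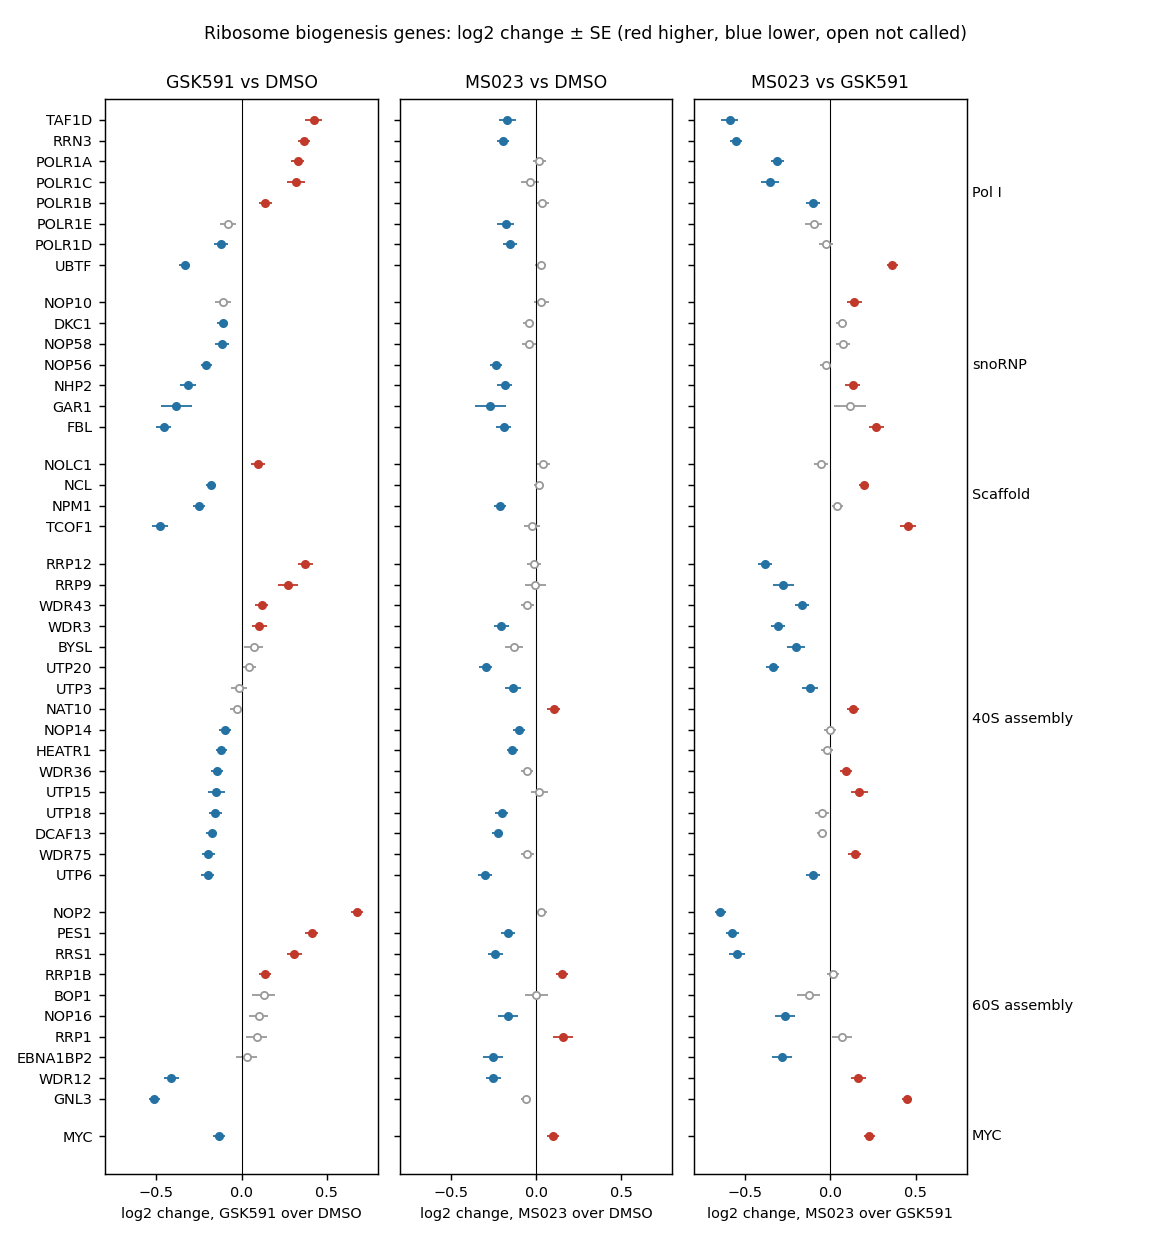
Fitted log2 change ± SE (edgeR, all 9 libraries) of each gene for GSK591 over DMSO, MS023 over DMSO and MS023 over GSK591, grouped by role and ordered within a role by the change with GSK591. Red points are called higher, blue points lower and open grey points not called. The left panel spreads from -0.51 to 0.68, and the middle panel, with 22 blue and 4 red points, stays between -0.30 and 0.16.

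NOP2, TAF1D, FBL and UTP20 have the following sequences upstream of their starts (RefSeq, GRCh38.p14, 250 bases up to the base before the annotated start, 5′ to 3′ on the gene's strand). NOP2 is shown as the member with the largest increase with GSK591, TAF1D as the polymerase I factor with the largest, FBL as the snoRNP protein with the largest decrease with GSK591, and UTP20 as a gene called lower with MS023 alone that holds the MYC box. Capitals mark CCGGAA or its reverse complement TTCCGG, the core bound by ETS factors, in NOP2, TAF1D and FBL, and CACGTG, the box bound by MYC with MAX, in UTP20.
NOP2 (chr12:6568292-6568541, - strand): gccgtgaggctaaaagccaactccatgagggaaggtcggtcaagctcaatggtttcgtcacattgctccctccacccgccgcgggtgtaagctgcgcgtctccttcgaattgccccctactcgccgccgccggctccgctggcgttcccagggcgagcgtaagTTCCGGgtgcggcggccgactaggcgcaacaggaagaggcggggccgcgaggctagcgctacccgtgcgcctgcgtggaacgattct
TAF1D (chr11:93741496-93741745, - strand): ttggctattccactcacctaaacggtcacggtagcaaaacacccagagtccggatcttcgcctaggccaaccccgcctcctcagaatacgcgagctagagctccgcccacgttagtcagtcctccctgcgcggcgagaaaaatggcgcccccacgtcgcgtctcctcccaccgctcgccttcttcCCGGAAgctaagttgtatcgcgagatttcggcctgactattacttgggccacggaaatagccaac
FBL (chr19:39846380-39846629, - strand): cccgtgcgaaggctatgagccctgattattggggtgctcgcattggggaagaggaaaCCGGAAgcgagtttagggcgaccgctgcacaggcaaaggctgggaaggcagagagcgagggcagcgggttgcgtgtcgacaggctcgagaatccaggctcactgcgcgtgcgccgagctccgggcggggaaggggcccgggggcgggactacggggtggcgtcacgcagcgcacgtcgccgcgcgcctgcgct
UTP20 (chr12:101279855-101280104, + strand): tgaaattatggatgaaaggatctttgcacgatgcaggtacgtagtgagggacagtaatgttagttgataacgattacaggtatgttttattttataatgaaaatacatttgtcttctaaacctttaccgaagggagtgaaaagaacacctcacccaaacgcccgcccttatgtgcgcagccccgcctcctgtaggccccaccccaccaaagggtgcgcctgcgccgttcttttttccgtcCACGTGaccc
Of the 46 genes, 36 had a window in the RefSeq table. On either strand, CACGTG stood in 5 of 36 (13.9%), namely EBNA1BP2, NAT10, NOP10, UTP18 and UTP20, and in 10.9% of the 11037 tested genes with a window. CCGGAA stood in 17 of 36 (47.2%), beside 27.6% of those genes. CCAAT was found in 41.7% of members and 40.9% of tested genes, the GC box GGGCGG in 72.2% of members and 72.3% of tested genes, and the NRF1 palindrome in 5.56% and 2.16%. Motifs were counted separately whether or not they overlapped. A match describes letters in this window and does not show binding. In the 5 genes with CACGTG, none rose and 1 fell with GSK591, beside 10 higher and 17 lower of the 31 members whose window lacks it and 62.6% of all genes called. With MS023, 1 of the 5 rose and 3 fell, beside 1 higher and 16 lower of the 31 and 51.0% of all genes called. These differences were not tested.

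Some values carry a limit from the annotation (GENCODE 29, GRCh38). Exons of 19 members overlapped another annotated gene, on the opposite strand for TAF1D, POLR1C, UBTF, NHP2, WDR3, WDR36, RRP12, UTP6, UTP15, HEATR1, NOP14, DCAF13, PES1, WDR12, GNL3, NOP16 and EBNA1BP2 (17 genes), and on the same strand for HEATR1, NOP2 and RRS1. The strand setting of the counting is not stated, so reads of such neighbours cannot be told apart from the gene's own, and these values are uncertain. Pseudogenes named after the gene were annotated for 7 members, 45 for NPM1, 3 each for NOP56 and DCAF13 and 2 each for RRN3, NCL, PES1 and NHP2, with which reads may be shared. Of the 23 members with either, 8 were higher and 13 lower with GSK591, and none higher and 15 lower with MS023. Of the 23 with neither, 6 were higher and 9 lower with GSK591, and 4 higher and 7 lower with MS023. The shares called with GSK591 were thus 91.3% with either and 65.2% with neither, beside 62.6% of all genes tested. The same shares with MS023 were 65.2% and 47.8%, beside 51.0%. The subsets were not tested against each other.

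Of RNA polymerase I and its initiation factors, TAF1D and RRN3 moved in opposite directions with the 2 inhibitors. TAF1D (ENSG00000166012, hg19 chromosome 11, 93463114 to 93517557), a subunit of the selectivity factor that recruits the polymerase, had 118, 127 and 129 CPM in the GSK591 libraries, 84.0, 80.3 and 83.2 CPM in the MS023 libraries and 86.4, 91.0 and 101 CPM in the DMSO libraries. All GSK591 libraries lay above all others, and all MS023 libraries lay below all DMSO libraries. The log2 change was 0.42 ± 0.05 with GSK591 (adjusted p = 3.35e-06), -0.17 ± 0.05 with MS023 (adjusted p = 0.0113) and -0.59 ± 0.05 between MS023 and GSK591 (adjusted p = 7.54e-08). The decrease with MS023 was not called without DMSO replicate 3 (adjusted p = 0.0788), scaled by total counts (adjusted p = 0.0507) or in FPKM without a filter (adjusted p = 0.102). RRN3 (ENSG00000085721, hg19 chromosome 16, 15153879 to 15188174), which joins the polymerase to that factor, stood at 126, 130.1 and 128 CPM in the GSK591 libraries, 85.6, 85.5 and 89.8 CPM in the MS023 libraries and 103, 98.7 and 96.5 CPM in the DMSO libraries. Its groups did not overlap either, with log2 changes of 0.36 ± 0.04 with GSK591 (adjusted p = 4.26e-07) and -0.19 ± 0.04 with MS023 (adjusted p = 0.000344), both kept at the 0.05 threshold in every alternative run.

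The largest catalytic subunit, POLR1A (ENSG00000068654, hg19 chromosome 2, 86247339 to 86333278), had 143, 144 and 135 CPM in the GSK591 libraries, 111, 115 and 113 CPM in the MS023 libraries and 113, 108 and 114 CPM in the DMSO libraries. It was higher in every GSK591 library than in any other, by a log2 change of 0.33 ± 0.04 (adjusted p = 1.89e-06), while MS023 and DMSO libraries overlapped (log2 difference 0.02 ± 0.04, adjusted p = 0.698). On the FPKM scale this increase was 0.16 and was not called (limma on log2(FPKM + 1), adjusted p = 0.0716). The second largest subunit, POLR1B, had 68.6, 70.8 and 67.1 CPM in the GSK591 libraries, 62.1, 65.4 and 64.8 CPM in the MS023 libraries and 65.4, 60.6 and 61.3 CPM in the DMSO libraries. GSK591 libraries lay above DMSO libraries (log2 change 0.14 ± 0.04, adjusted p = 0.00721), a call also lost in FPKM (adjusted p = 0.152), and MS023 did not differ from DMSO beyond the test (log2 difference 0.04 ± 0.04, adjusted p = 0.458). POLR1C, shared with RNA polymerase III, averaged 23.5 ± 0.527 CPM in GSK591, 18.4 ± 0.955 CPM in MS023 and 18.8 ± 0.961 CPM in DMSO, an increase of 0.32 ± 0.05 with GSK591 (adjusted p = 0.00012) that missed the threshold in FPKM without a filter (adjusted p = 0.0814).

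Not every polymerase gene rose with GSK591. UBTF (ENSG00000108312, hg19 chromosome 17, 42282401 to 42298994), the factor that binds along the ribosomal DNA, had 138, 138 and 137 CPM in the GSK591 libraries, 176, 177 and 176 CPM in the MS023 libraries and 169, 176 and 175 CPM in the DMSO libraries. The GSK591 libraries were below all others, with a log2 change of -0.33 ± 0.03 against DMSO (adjusted p = 5.79e-07), and MS023 exceeded GSK591 by 0.36 ± 0.03 (adjusted p = 1.89e-07). MS023 and DMSO differed by 0.03 ± 0.03 (adjusted p = 0.506). POLR1D, the partner of POLR1C, averaged 58.4 ± 2.05 CPM in GSK591, 57.3 ± 1.16 CPM in MS023 and 63.6 ± 2.52 CPM in DMSO. Its decreases of -0.12 ± 0.04 with GSK591 (adjusted p = 0.0168) and -0.15 ± 0.04 with MS023 (adjusted p = 0.00654) were the smallest called in this role: in FPKM the GSK591 difference had the other sign, at 0.09 (adjusted p = 0.151), and the MS023 call was lost (adjusted p = 0.225). With counts, the GSK591 call was lost without DMSO replicate 1 or 2 or without GSK591 replicate 1 or 2 (adjusted p 0.0705 to 0.118) and under total counts (0.174), and the MS023 call without DMSO replicate 2 (0.054). POLR1E, a subunit particular to RNA polymerase I, fell with MS023, to 33.7 ± 0.456 CPM, against 38.2 ± 2.59 CPM in DMSO (log2 change -0.18 ± 0.05, adjusted p = 0.00711), a call lost without DMSO replicate 2 (adjusted p = 0.0614) and in FPKM without a filter (0.0704). In GSK591 it stood at 36.1 ± 1.10 CPM (log2 difference -0.08 ± 0.05, adjusted p = 0.17).

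Between the inhibitors, 3 polymerase subunits were lower in MS023, with log2 differences of -0.31 ± 0.04 for POLR1A (adjusted p = 2.86e-06), -0.36 ± 0.05 for POLR1C (adjusted p = 3.86e-05) and -0.10 ± 0.04 for POLR1B (adjusted p = 0.0361). All of these differences were lost in FPKM, with adjusted p = 0.437 for POLR1A, 0.0584 for POLR1C and 0.955 for POLR1B. The POLR1B difference was also lost without DMSO replicate 3, GSK591 replicate 1 or 2, or MS023 replicate 1 or 3 (adjusted p 0.0517 to 0.161) and with the replicate block (0.0584). TAF1D, RRN3 and UBTF kept their direct differences in every alternative run.

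The snoRNP core proteins were called lower or not at all with both inhibitors. FBL (ENSG00000105202, hg19 chromosome 19, 40325098 to 40337054), fibrillarin, the methyltransferase of box C/D particles, had 233, 212 and 224 CPM in the GSK591 libraries, 281, 267 and 259 CPM in the MS023 libraries and 302, 312 and 306 CPM in the DMSO libraries. The groups did not overlap and were ordered GSK591, MS023 and DMSO from low to high. FBL fell to 223 ± 10.2 CPM in GSK591, against 307 ± 5.07 CPM in DMSO (log2 change -0.46 ± 0.04, adjusted p = 3.4e-07), and to 269 ± 10.9 CPM in MS023 (log2 change -0.19 ± 0.04, adjusted p = 0.00198). MS023 exceeded GSK591 by 0.27 ± 0.04 (adjusted p = 6.59e-05). The MS023 call was lost in FPKM without a filter (adjusted p = 0.0673).

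The other box C/D core proteins were NOP56 and NOP58, which pair within the particle. NOP56 had 159.5, 156 and 159.7 CPM in the GSK591 libraries, 157, 154 and 155 CPM in the MS023 libraries and 178, 184 and 187 CPM in the DMSO libraries, so both treated groups lay below DMSO and overlapped each other. It fell with MS023 (log2 change -0.23 ± 0.03, adjusted p = 5.09e-05, kept in every alternative), and with GSK591 (log2 change -0.21 ± 0.03, adjusted p = 0.000107, lost in FPKM at adjusted p = 0.0571). NOP58 had 122, 123 and 129 CPM in the GSK591 libraries, 134, 126 and 132 CPM in the MS023 libraries and 128, 140.5 and 136 CPM in the DMSO libraries. Its call with GSK591 (log2 change -0.12 ± 0.04, adjusted p = 0.0257) came with overlapping libraries. It was lost without DMSO replicate 2 or 3 or GSK591 replicate 1 or 2 (adjusted p 0.0541 to 0.179), with only the 6 libraries compared (0.056) and under total counts (0.265).

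Among the box H/ACA proteins, GAR1 (ENSG00000109534, hg19 chromosome 4, 110736666 to 110745893), which joins the particle last, had 22.2, 21.3 and 20.6 CPM in the GSK591 libraries, 26.7, 20.7 and 21.7 CPM in the MS023 libraries and 24.1, 30.2 and 28.9 CPM in the DMSO libraries. It was the most variable member in MS023 and DMSO, with coefficients of variation of 14.1% and 11.5%, where the median over members was 2.78% and 3.91%. GSK591 libraries lay below all DMSO libraries (log2 change -0.38 ± 0.09, adjusted p = 0.0021), while MS023 and DMSO libraries overlapped. The MS023 decrease of -0.27 ± 0.09 (adjusted p = 0.023) was not called without DMSO replicate 2 or 3 or MS023 replicate 2 or 3 (adjusted p 0.0788 to 0.13) or in FPKM (0.0681). NHP2, its partner protein that binds the RNA, fell to 53.6 ± 1.96 CPM in GSK591 and 58.6 ± 1.64 CPM in MS023, against 66.6 ± 3.78 CPM in DMSO. The log2 changes were -0.31 ± 0.05 (adjusted p = 2.81e-05) and -0.18 ± 0.04 (adjusted p = 0.00354); the MS023 one was lost in FPKM without a filter (adjusted p = 0.0931).

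NOP10, the smallest of these proteins, had 65.8, 58.7 and 65.9 CPM in the GSK591 libraries, 70.0, 71.6 and 68.2 CPM in the MS023 libraries and 70.6, 67.8 and 66.8 CPM in the DMSO libraries. Its GSK591 libraries lay below the DMSO libraries, yet the difference of -0.11 ± 0.05 did not pass (adjusted p = 0.0534). This decrease was called in 6 of 19 alternative runs, among them FPKM (-0.22, adjusted p = 0.00972). MS023 exceeded GSK591 by 0.14 ± 0.05 (adjusted p = 0.0147), a call lost without GSK591 replicate 2 (0.0997) or MS023 replicate 2 (0.0728). DKC1, dyskerin, the pseudouridine synthase itself, averaged 110.4 ± 2.57 CPM in GSK591, 116 ± 0.0199 CPM in MS023 and 119 ± 2.45 CPM in DMSO. Its decrease with GSK591 of -0.11 ± 0.03 (adjusted p = 0.00848) was lost without DMSO replicate 2 (0.0551) or GSK591 replicate 3 (0.116), without both DMSO replicate 1 and GSK591 replicate 3 (0.0771), under total counts (0.284) and in FPKM (0.131). NHP2 was higher in MS023 than in GSK591 by 0.13 ± 0.05 (adjusted p = 0.0213), which was lost in FPKM (0.0918) and without GSK591 replicate 2 (0.112) or MS023 replicate 1 (0.0713).

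With GSK591, TCOF1 had the largest change of the nucleolar scaffolds, and with MS023 only NPM1 was called. TCOF1 (ENSG00000070814, hg19 chromosome 5, 149737202 to 149779871) encodes treacle, which couples ribosomal DNA transcription to processing, and had 93.1, 84.0 and 85.3 CPM in the GSK591 libraries, 118, 121 and 121 CPM in the MS023 libraries and 114, 126 and 125 CPM in the DMSO libraries. All GSK591 libraries lay below all others, with a log2 change of -0.48 ± 0.04 against DMSO (adjusted p = 3.47e-07) and MS023 exceeded GSK591 by 0.46 ± 0.04 (adjusted p = 4.52e-07). MS023 and DMSO overlapped (log2 difference -0.02 ± 0.04, adjusted p = 0.702; its sign turned under total counts). Nucleolin, an RNA chaperone of the nucleolus (ENSG00000115053, hg19 chromosome 2, 232318242 to 232348352), had 946, 931 and 903 CPM in the GSK591 libraries, 1075, 1059 and 1053 CPM in the MS023 libraries and 1020.2, 1086 and 1045 CPM in the DMSO libraries. Here too GSK591 was the low group (log2 change -0.18 ± 0.03 against DMSO, adjusted p = 8.29e-05), and MS023 did not pass against DMSO (0.02 ± 0.03, adjusted p = 0.667).

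NPM1 (ENSG00000181163, hg19 chromosome 5, 170814120 to 170838141), nucleophosmin, the protein that forms the outer layer of the nucleolus, had 1019, 1006 and 1092 CPM in the GSK591 libraries, 1079, 1068 and 1059.9 CPM in the MS023 libraries and 1233, 1286 and 1191 CPM in the DMSO libraries. DMSO libraries were the highest and the treated groups overlapped each other, with log2 changes of -0.25 ± 0.03 with GSK591 (adjusted p = 1.61e-05) and -0.21 ± 0.03 with MS023 (adjusted p = 0.000139). The MS023 call was lost in FPKM (-0.11, adjusted p = 0.15). MS023 exceeded GSK591 by 0.04 ± 0.03 on counts (adjusted p = 0.316) and by 0.23 in FPKM, where the difference was called (adjusted p = 0.00555). NPM1 has 45 pseudogenes named after it in the annotation, and how the authors' counting divided reads between them is not given, so its values are uncertain. NOLC1, a chaperone of snoRNPs, had 239, 244 and 242 CPM in the GSK591 libraries, 235, 235 and 227 CPM in the MS023 libraries and 213, 236 and 228 CPM in the DMSO libraries. GSK591 libraries lay above the rest, and MS023 and DMSO libraries overlapped. The increase with GSK591, 0.10 ± 0.04, was at the edge of the threshold (adjusted p = 0.0495). It was lost without DMSO replicate 1 or 3, GSK591 replicate 2 or any single MS023 library (adjusted p 0.0639 to 0.104), with the replicate block (0.0808), without a filter on low counts (0.104), without DMSO replicate 1 and GSK591 replicate 3 (0.139), with only the 6 libraries compared (0.0618) and in FPKM (0.275).

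Among the small subunit factors, RRP12 had the largest increase with GSK591. RRP12 (ENSG00000052749, hg19 chromosome 10, 99116115 to 99161127), which takes part in late maturation and export of the small subunit, had 73.7, 72.9 and 73.6 CPM in the GSK591 libraries, 52.7, 58.2 and 57.7 CPM in the MS023 libraries and 56.7, 55.3 and 57.9 CPM in the DMSO libraries. GSK591 libraries were all above the others, a log2 change of 0.38 ± 0.04 against DMSO (adjusted p = 1.78e-06), and MS023 was lower than GSK591 (log2 difference -0.39 ± 0.04, adjusted p = 1.07e-06). MS023 and DMSO overlapped (log2 difference -0.01 ± 0.04, adjusted p = 0.853; its sign turned under total counts). RRP9, the protein particular to the U3 snoRNP, moved the same way with GSK591, averaging 23.1 ± 1.48 CPM in GSK591, 19.0 ± 0.643 CPM in MS023 and 19.1 ± 1.21 CPM in DMSO. Its increase of 0.27 ± 0.06 (adjusted p = 0.00111) was lost in FPKM (adjusted p = 0.0641).

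UTP6 (ENSG00000108651, hg19 chromosome 17, 30187923 to 30228784), a subunit of the UTP-B complex, had 65.3, 63.7 and 65.8 CPM in the GSK591 libraries, 62.9, 59.1 and 59.5 CPM in the MS023 libraries and 73.0, 77.8 and 72.8 CPM in the DMSO libraries. Both treated groups lay below DMSO in all libraries, with log2 changes of -0.20 ± 0.04 with GSK591 (adjusted p = 0.000489) and -0.30 ± 0.04 with MS023 (adjusted p = 1.88e-05). In FPKM both calls were lost (adjusted p = 0.0995 and 0.0783) at changes of -0.26 and -0.30. UTP18, of the same complex, fell to 107 ± 2.81 CPM in GSK591 and 103 ± 2.73 CPM in MS023, against 119 ± 5.97 CPM in DMSO. Its log2 changes were -0.15 ± 0.04 (adjusted p = 0.00381, lost under total counts at 0.0564) and -0.20 ± 0.04 (adjusted p = 0.000675, kept in every alternative). WDR36 was lower with GSK591 (-0.14 ± 0.04, adjusted p = 0.00244; lost under total counts at 0.0927 and in FPKM at 0.13). WDR3, the remaining UTP-B subunit of the set, had 73.5, 76.5 and 73.0 CPM in the GSK591 libraries, 61.9, 59.0 and 59.1 CPM in the MS023 libraries and 65.4, 72.9 and 68.9 CPM in the DMSO libraries, with no overlap between groups.

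The WDR3 decrease with MS023 was -0.20 ± 0.04 (adjusted p = 0.00115, lost in FPKM at 0.0816) and the direct difference was -0.31 ± 0.04 (adjusted p = 1.58e-05, kept in every alternative). Its increase with GSK591 was 0.10 ± 0.04 (adjusted p = 0.0445). That call was lost without DMSO replicate 1 or 3, GSK591 replicate 2 or any single MS023 library (adjusted p 0.0532 to 0.128), with the replicate block (0.0574), with no filter on low counts (0.0663), without DMSO replicate 1 and GSK591 replicate 3 (0.062), with only the 6 libraries compared (0.0529) and in FPKM (0.442). Between the inhibitors, UTP6 (-0.10, adjusted p = 0.0357) and WDR36 (0.09, adjusted p = 0.0358) were also near the threshold. UTP6 lost it without GSK591 replicate 1 or 3 or MS023 replicate 2 or 3 (adjusted p 0.0702 to 0.126), with the replicate block (0.0579) and in FPKM (0.788). WDR36 lost it without the same libraries (0.126 to 0.206), with the replicate block (0.0596), under DESeq2 (0.0897) and in FPKM (0.257).

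The UTP-A complex, which binds the precursor first, was represented by HEATR1, UTP15, WDR43 and WDR75. With GSK591, 3 of these 4 fell and WDR43 rose, beside 62.6% of all genes called, 30.1% higher and 32.4% lower. WDR75 averaged 79.6 ± 2.29 CPM in GSK591, 88.0 ± 1.98 CPM in MS023 and 91.2 ± 3.75 CPM in DMSO, a decrease of -0.20 ± 0.04 with GSK591 (adjusted p = 0.000374) kept in every alternative. WDR43 averaged 192 ± 5.21 CPM in GSK591 against 176 ± 2.53 CPM in DMSO (0.12 ± 0.04, adjusted p = 0.0161; lost without DMSO replicate 3 at 0.0605 and in FPKM at 0.164). Its difference between MS023 and GSK591, -0.17 ± 0.04, was kept in every alternative (adjusted p = 0.00148). UTP15 was lower in GSK591 than in DMSO (log2 change -0.15 ± 0.05, adjusted p = 0.0159; lost without DMSO replicate 2 or GSK591 replicate 1 or 2 at 0.0689 to 0.168, under total counts at 0.112 and in FPKM at 0.0522). HEATR1 was lower with GSK591 (log2 change -0.12 ± 0.03, adjusted p = 0.00584; lost under total counts at 0.161 and in FPKM at 0.0729). It was the only 1 of the 4 called with MS023, at -0.14 ± 0.03 (adjusted p = 0.00274, lost in FPKM at 0.121), beside 51.0% of all genes called.

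UTP20 and NAT10 were called with MS023 and not with GSK591. UTP20 (ENSG00000120800, hg19 chromosome 12, 101673887 to 101780394), a large factor of the processome, had 107, 115 and 109.7 CPM in the GSK591 libraries, 91.2, 85.1 and 85.6 CPM in the MS023 libraries and 108, 105 and 108 CPM in the DMSO libraries. MS023 libraries lay below all others, with log2 differences of -0.29 ± 0.04 against DMSO (adjusted p = 1.34e-05) and -0.34 ± 0.04 against GSK591 (adjusted p = 1.42e-06), both kept in every alternative, while GSK591 and DMSO overlapped (0.04 ± 0.04, adjusted p = 0.308). NAT10 (ENSG00000135372, hg19 chromosome 11, 34127149 to 34169217), which acetylates cytidines of the small subunit RNA, had 81.5, 79.6 and 77.9 CPM in the GSK591 libraries, 84.1, 89.3 and 88.6 CPM in the MS023 libraries and 83.9, 79.9 and 80.1 CPM in the DMSO libraries. It was higher in MS023 than in GSK591 by 0.13 ± 0.04 (adjusted p = 0.005, kept in every alternative). Its increase of 0.10 ± 0.04 over DMSO (adjusted p = 0.0275) was lost without DMSO replicate 2 or 3 or MS023 replicate 2 or 3 (adjusted p 0.0548 to 0.144), with the replicate block (0.0504) and under DESeq2 (0.0514). The GSK591 difference of NAT10 was -0.03 ± 0.04 (adjusted p = 0.504) and turned its sign under total counts.

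DCAF13, the human counterpart of yeast Sof1, fell to 88.4 ± 1.40 CPM in GSK591 and 85.3 ± 2.54 CPM in MS023, against 99.8 ± 1.22 CPM in DMSO. These log2 changes, -0.17 ± 0.03 (adjusted p = 0.000248) and -0.23 ± 0.03 (adjusted p = 4.04e-05), were kept in every alternative. NOP14 showed log2 changes of -0.10 with GSK591 and -0.10 with MS023 at adjusted p = 0.0353 and 0.0363. The first was lost without DMSO replicate 2 or 3, any single GSK591 library or MS023 replicate 2 or 3 (0.0541 to 0.219), and the second without DMSO replicate 2 or 3, GSK591 replicate 1 or 3 or MS023 replicate 2 or 3 (0.0766 to 0.224). Both were lost with the replicate block (0.0528 and 0.0569), under DESeq2 (0.105 and 0.0656) and in FPKM (0.0911 and 0.561). UTP3 was lower with MS023 (log2 change -0.14 ± 0.05, adjusted p = 0.0239) with overlapping libraries, lost without DMSO replicate 2 or 3, GSK591 replicate 3 or MS023 replicate 2 or 3 (0.051 to 0.176) and in FPKM (0.15). BYSL, a late small subunit factor, was not called against DMSO with either inhibitor (0.07 ± 0.06, adjusted p = 0.267, with GSK591 and -0.13 ± 0.06, adjusted p = 0.0632, with MS023), and was lower in MS023 than in GSK591 (-0.20 ± 0.06, adjusted p = 0.00481; 0.0519 in FPKM).

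The large subunit factors held the largest changes in both directions with GSK591. NOP2 (ENSG00000111641, hg19 chromosome 12, 6666029 to 6677857), a methyltransferase of the large subunit RNA, had 144, 148 and 146 CPM in the GSK591 libraries, 91.8, 96.5 and 91.9 CPM in the MS023 libraries and 92.4, 89.3 and 92.5 CPM in the DMSO libraries. GSK591 libraries all lay above the MS023 and DMSO libraries, which overlapped each other. GSK591 was at 1.60 times the DMSO level (log2 change 0.68 ± 0.03, adjusted p = 3.11e-10), and MS023 differed from GSK591 by -0.65 ± 0.03 (adjusted p = 3.13e-10). The MS023 difference from DMSO was 0.03 ± 0.03 (adjusted p = 0.462). GNL3 (ENSG00000163938, hg19 chromosome 3, 52715172 to 52728508), nucleostemin, a nucleolar GTPase, had 76.7, 76.9 and 79.7 CPM in the GSK591 libraries, 106, 107 and 106 CPM in the MS023 libraries and 109, 111 and 112 CPM in the DMSO libraries. It was the strongest decrease of the set, with GSK591 at 0.702 times the DMSO level (log2 change -0.51 ± 0.03, adjusted p = 2e-09). MS023 exceeded GSK591 by 0.45 ± 0.03 (adjusted p = 5.34e-09) and lay below every DMSO library without passing the test (-0.06 ± 0.03, adjusted p = 0.102).

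PES1, BOP1 and WDR12 form the PeBoW complex, which processes the large subunit RNA, and moved apart. PES1 (ENSG00000100029, hg19 chromosome 22, 30972612 to 31003070) had 104, 98.3 and 103 CPM in the GSK591 libraries, 68.4, 66.7 and 69.9 CPM in the MS023 libraries and 80.1, 73.5 and 76.1 CPM in the DMSO libraries, with no overlap between groups. It rose with GSK591 (log2 change 0.41 ± 0.04, adjusted p = 3.53e-07), and its log2 change was -0.16 ± 0.04 with MS023 (adjusted p = 0.00279) and -0.58 ± 0.04 between MS023 and GSK591 (adjusted p = 6.64e-09). WDR12 (ENSG00000138442, hg19 chromosome 2, 203739505 to 203879521) had 40.3, 39.3 and 43.8 CPM in the GSK591 libraries, 47.5, 45.2 and 45.4 CPM in the MS023 libraries and 54.7, 54.6 and 55.0 CPM in the DMSO libraries, again without overlap, in the order GSK591, MS023, DMSO from low to high. Its log2 change was -0.41 ± 0.04 with GSK591 (adjusted p = 9.75e-07) and -0.25 ± 0.04 with MS023 (adjusted p = 0.000203, lost in FPKM at 0.0935). BOP1 had 13.5, 12.9 and 13.1 CPM in the GSK591 libraries, 12.1, 12.0 and 12.0 CPM in the MS023 libraries and 13.1, 10.8 and 12.3 CPM in the DMSO libraries. It passed no test in this fit (0.13 ± 0.07, adjusted p = 0.115, with GSK591 and 0.00 ± 0.07, adjusted p = 0.989, with MS023), though 3 of 19 alternative runs called its increase with GSK591.

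RRS1, which in yeast helps to bring the smallest ribosomal RNA into the large subunit, stood at 59.1 ± 1.01 CPM in GSK591, 40.4 ± 1.63 CPM in MS023 and 47.7 ± 2.82 CPM in DMSO. It changed by 0.31 ± 0.05 with GSK591 (adjusted p = 3.36e-05) and -0.24 ± 0.05 with MS023 (adjusted p = 0.000605) on the log2 scale, without overlap and in every alternative. EBNA1BP2 (ENSG00000117395, hg19 chromosome 1, 43629846 to 43736607), a nucleolar partner of such factors, had 84.4, 84.6 and 87.8 CPM in the GSK591 libraries, 76.4, 67.0 and 67.7 CPM in the MS023 libraries and 77.4, 92.1 and 81.9 CPM in the DMSO libraries. MS023 libraries lay below all others, with log2 differences of -0.25 ± 0.06 against DMSO (adjusted p = 0.00266, lost in FPKM without a filter at 0.128) and -0.28 ± 0.06 against GSK591 (adjusted p = 0.000753, lost in FPKM at 0.0635). GSK591 and DMSO overlapped (0.03 ± 0.06, adjusted p = 0.679). NOP16 was likewise lower with MS023 (log2 change -0.17 ± 0.06, adjusted p = 0.0257; lost without DMSO replicate 2 or 3 or MS023 replicate 3 at 0.0846 to 0.12, under total counts at 0.0688 and in FPKM at 0.0627).

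The related nucleolar proteins RRP1 and RRP1B were the only large subunit factors that rose with MS023. RRP1B averaged 119.7 ± 2.12 CPM in GSK591, 121 ± 3.70 CPM in MS023 and 109 ± 2.39 CPM in DMSO. Its increases were 0.14 ± 0.04 with GSK591 (adjusted p = 0.00337, lost in FPKM at 0.105) and 0.15 ± 0.04 with MS023 (adjusted p = 0.00196, kept in every alternative). RRP1 (ENSG00000160214, hg19 chromosome 21, 45209394 to 45225174) had 25.3, 25.9 and 27.6 CPM in the GSK591 libraries, 25.7, 28.3 and 28.9 CPM in the MS023 libraries and 24.3, 23.5 and 26.5 CPM in the DMSO libraries, and its groups overlapped. The increase with MS023 of 0.16 ± 0.06 (adjusted p = 0.0374) was lost without DMSO replicate 2, GSK591 replicate 2 or MS023 replicate 2 or 3 (adjusted p 0.0526 to 0.143), without DMSO replicate 1 and GSK591 replicate 3 (0.0618) and in FPKM (0.0987). With GSK591 it was not called (0.09 ± 0.06, adjusted p = 0.211).

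**Figure D3:**
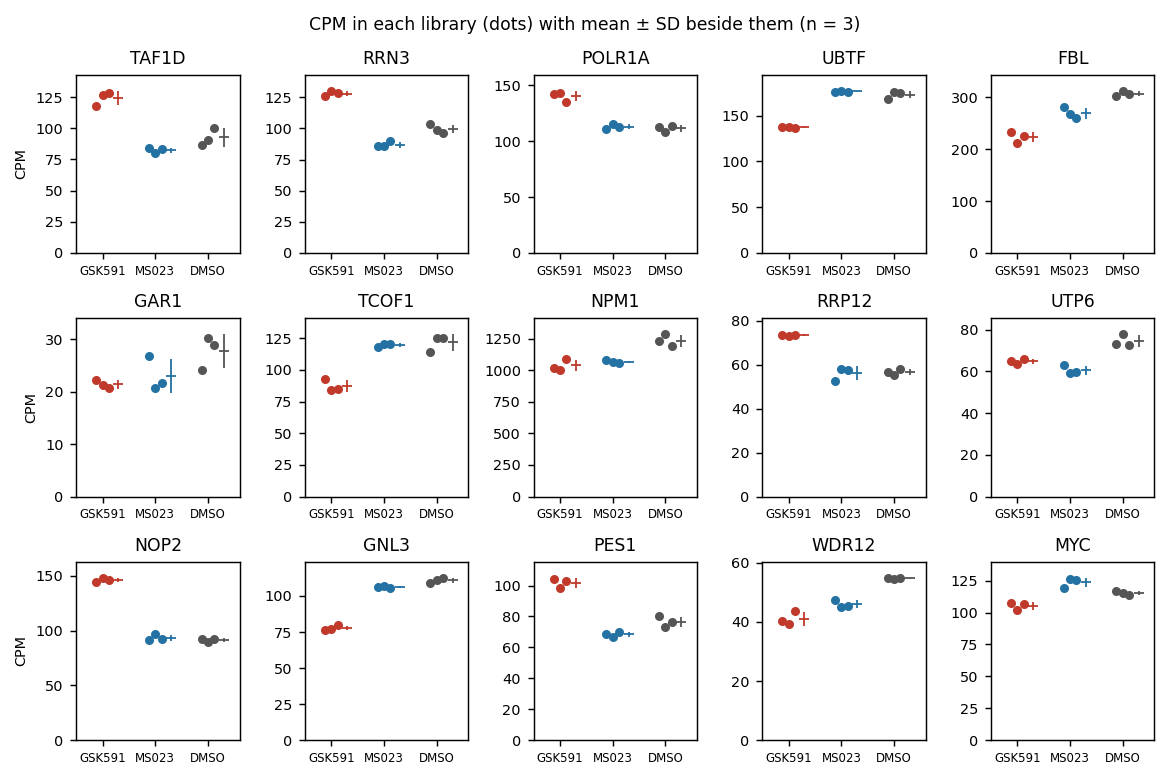
CPM (TMM scaled) of 15 of the genes in each library, with 3 dots a group for GSK591 (red), MS023 (blue) and DMSO (dark grey) and the mean ± SD beside them, on axes from 0. NOP2, PES1, RRN3 and TAF1D are highest in GSK591, TCOF1, GNL3 and UBTF lowest there, and FBL and WDR12 step up in the order GSK591, MS023, DMSO.

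MYC (ENSG00000136997, hg19 chromosome 8, 128747680 to 128753674) had 108, 102 and 107 CPM in the GSK591 libraries, 119.6, 126 and 125 CPM in the MS023 libraries and 117, 116 and 114 CPM in the DMSO libraries. The groups did not overlap: GSK591 was the lowest and MS023 the highest. The log2 change was -0.13 ± 0.04 with GSK591 (adjusted p = 0.0049), 0.10 ± 0.04 with MS023 (adjusted p = 0.0286) and 0.23 ± 0.04 between MS023 and GSK591 (adjusted p = 4.14e-05). The GSK591 decrease was lost under total counts (adjusted p = 0.105) and without DMSO replicate 1 and GSK591 replicate 3 (0.0514). The MS023 increase was lost without DMSO replicate 3 (0.104) or MS023 replicate 2 (0.15) or 3 (0.137) and with the replicate block (0.0648). The direct difference was kept in every alternative. These are levels of MYC RNA, and no measure of its protein is among these data.

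Other genes of the pathway, on lists written with earlier results of these data known, were counted in the same fit. Of 153 symbols listed, older and newer names together, 139 genes were found and 137 tested; FBLL1 and NOL12 did not pass the filter. With GSK591, 30 of 137 rose and 61 fell (66.4%, median log2 change -0.09), with MS023 16 rose and 53 fell (50.4%, median -0.07), and between MS023 and GSK591 51 were higher and 40 lower (66.4%, median 0.03). The total shares called were close to the backgrounds of 62.6%, 51.0% and 65.4%, and the split by direction was not. With GSK591, 21.9% were higher and 44.5% lower, beside 30.1% and 32.4% of all genes. With MS023, 11.7% were higher and 38.7% lower, beside 25.1% and 25.9%, and between MS023 and GSK591 37.2% were higher and 29.2% lower, beside 33.6% and 31.7%. These splits were described and not tested. Exon overlaps and pseudogenes were looked up for the members only, so that limit is not known for these other genes. The 16 higher with MS023 count MYCN, which passed the filter through its MS023 libraries alone and is described with the MYC network. The direct comparison with GSK591 also includes MYCN, and its value there is not read either.

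Among 9 other polymerase I genes, 2 rose and 5 fell with GSK591 (median -0.26, 77.8% called, beside 62.6% of all genes). MYBBP1A, a nucleolar repressor of ribosomal RNA synthesis, rose to 123 ± 1.26 CPM in GSK591, against 91.6 ± 8.44 CPM in DMSO (0.43 ± 0.06, adjusted p = 1.29e-05). The polymerase I subunit CD3EAP rose by 0.25 ± 0.07 on the log2 scale (adjusted p = 0.00358). TTF1, the termination factor, was lower with GSK591 (log2 change -0.48 ± 0.06, adjusted p = 9.02e-06), and so was ZNRD1, another subunit (-0.46 ± 0.11, adjusted p = 0.00238). The subunits of one enzyme thus moved both ways in this group as well. With MS023, none rose and 4 fell (44.4% called, beside 51.0% of all genes). Among them were TAF1A, a partner of TAF1D (-0.32 ± 0.07, adjusted p = 0.00119), and TTF1 (-0.29 ± 0.06, adjusted p = 0.00101), both lost in FPKM without a filter (0.0672 and 0.098). Between the inhibitors, MYBBP1A and TAF1A were lower in MS023 (log2 differences -0.54 ± 0.06 and -0.33 ± 0.07). ZNRD1 was higher by 0.33 ± 0.11 (lost without GSK591 replicate 3 at 0.0917 or MS023 replicate 1 at 0.0836, and without DMSO replicate 1 and GSK591 replicate 3 at 0.0611) and TWISTNB by 0.21 ± 0.04.

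Of 10 snoRNP assembly factors, none rose and 7 fell with GSK591 (median -0.24, 70.0% called, beside 62.6% of all genes). RPAP3, of the R2TP chaperone complex, was at -0.41 (adjusted p = 1.48e-07) and NAF1, an assembly factor of box H/ACA particles, at -0.31 (adjusted p = 3.01e-05). With MS023, 1 rose and 5 fell (median -0.10), beside 51.0% of all genes called, 25.1% higher and 25.9% lower. The one that rose was PIH1D1, the partner of RPAP3 (0.24 ± 0.06, adjusted p = 0.00202). NUFIP1, a box C/D assembly factor, was lower (-0.23 ± 0.06, adjusted p = 0.00365), as was ZNHIT3 (-0.20 ± 0.06, adjusted p = 0.0147; lost without DMSO replicate 2 at 0.118 or MS023 replicate 2 at 0.0612 or 3 at 0.0695, and in FPKM at 0.0513). PIH1D1 (0.52) and RPAP3 (0.25) were both higher in MS023 than in GSK591. In that comparison 5 of 10 were higher and none lower, beside 65.4% of all genes called, 33.6% higher and 31.7% lower.

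Nucleases and the RNA exosome mostly fell with GSK591, 16 of 25 against 4 that rose (median -0.20, 80.0% called, beside 62.6% of all genes). POP5 fell to 17.6 ± 0.93 CPM in GSK591, against 26.8 ± 1.04 CPM in DMSO (-0.61 ± 0.05, adjusted p = 1.45e-07), and EXOSC8, a subunit of the exosome, changed by -0.55 ± 0.06 (adjusted p = 1.44e-06). RPP40, which belongs to the same RNase MRP as POP5, rose to 21.0 ± 1.38 CPM in GSK591, against 14.9 ± 0.647 CPM in DMSO (0.50 ± 0.06, adjusted p = 4.45e-06). POP1 rose by 0.22 ± 0.05 on the log2 scale (adjusted p = 0.00184, lost in FPKM at 0.132). With MS023, 4 rose and 10 fell (median -0.08, 56.0% called, beside 51.0% of all genes). EXOSC5 changed by -0.41 ± 0.07 (adjusted p = 0.000123) and MPHOSPH6 by -0.28 ± 0.05 (adjusted p = 0.000583; 0.0841 in FPKM without a filter), while ISG20L2 rose by 0.25 ± 0.04 (adjusted p = 3.72e-05; lost in FPKM at 0.11) and RPP25 by 0.22 ± 0.05 (adjusted p = 0.00182; 0.0751 in FPKM without a filter). Between the inhibitors, 13 were higher in MS023 and 4 lower (68.0% called, beside 65.4% of all genes). They were led by RPP25 (0.64) and POP5 (0.46) above and RPP40 (-0.59) and EXOSC4 (-0.34) below.

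Of 33 other small subunit factors, 5 rose and 8 fell with GSK591 (median -0.03, 39.4% called, beside 62.6% of all genes). PDCD11 (0.37, adjusted p = 1.5e-07) and NOM1 (0.35, adjusted p = 2.69e-06) rose, and RRP7A (-0.55, adjusted p = 3.35e-07) and EMG1, a methyltransferase (-0.50, adjusted p = 1.12e-05), fell. With MS023, 4 rose and 9 fell (median -0.03, 39.4% called, beside 51.0% of all genes). NOL6 (0.22, adjusted p = 0.000686) and IMP4 (0.18, adjusted p = 0.00234, lost in FPKM at 0.185) were higher. The kinase RIOK2 (-0.27, adjusted p = 0.00204, 0.0835 in FPKM without a filter) and UTP11L (-0.26, adjusted p = 0.000542) were lower. Between MS023 and GSK591, EMG1 (0.60) and RRP7A (0.57) were higher, and PDCD11 (-0.42) and UTP14A (-0.40) lower.

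Of 45 other large subunit factors, 13 rose and 20 fell with GSK591 (median -0.06, 73.3% called, beside 62.6% of all genes). With MS023, 2 rose and 24 fell (median -0.12, 57.8% called, beside 51.0%). LSG1 (0.45, adjusted p = 2.48e-08) and SBDS (0.42, adjusted p = 1.79e-06), which act on the large subunit in the cytoplasm, rose with GSK591. TMA16 was lower with both inhibitors, at 20.8 ± 1.12 CPM in GSK591 and 25.2 ± 1.45 CPM in MS023, against 34.8 ± 2.36 CPM in DMSO (-0.75, adjusted p = 6.69e-08, and -0.47, adjusted p = 1.36e-05). RSL24D1 changed by -0.47 ± 0.04 with GSK591 (adjusted p = 2.86e-07). EFTUD1, the GTPase that works with SBDS, was lower with MS023 (-0.57 ± 0.04, adjusted p = 2.24e-08) and stayed lower in FPKM without being called (-0.42, adjusted p = 0.356). Its direct difference (-0.73) was -0.21 and not called in FPKM (adjusted p = 0.62). The ones that rose with MS023 were NLE1 (0.28, adjusted p = 0.00417, lost in FPKM at 0.0548) and RRP8 (0.20, adjusted p = 0.00287), and RRP8 had the opposite sign in FPKM (-0.26, adjusted p = 0.0113), so its direction depends on which of the authors' tables is used. Between MS023 and GSK591, WDR18 (0.54) and GNL2 (0.39) were higher and SBDS was lower (-0.88).

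MYC's network of partners included changes of more than 1 on the log2 scale. With GSK591, 6 of 15 rose and 5 fell (median 0.05, 73.3% called, beside 62.6% of all genes). PVT1, a long noncoding RNA beside MYC, rose to 43.4 ± 1.65 CPM in GSK591, against 19.5 ± 1.35 CPM in DMSO (1.16 ± 0.05, adjusted p = 1.52e-10), and MXD1, a MAX partner that opposes MYC, to 14.1 ± 0.682 CPM in GSK591, against 6.72 ± 0.716 CPM in DMSO (1.06 ± 0.08, adjusted p = 1.95e-08). MXD3, of the same family, fell to 7.69 ± 0.409 CPM in GSK591, against 16.4 ± 1.33 CPM in DMSO (-1.10 ± 0.07, adjusted p = 8.68e-09), and the MYC relative MYCL to 1.71 ± 0.17 CPM in GSK591, against 3.41 ± 0.0686 CPM in DMSO (0.5 times the DMSO level, adjusted p = 4e-06). Members of the MXD family thus moved both ways. With MS023, 5 rose, MYCN counted among them, and 1 fell (40.0% called, beside 51.0% of all genes). ZBTB17 (0.39, adjusted p = 0.000227) and MXD1 (0.38, adjusted p = 0.00119, and 0.0647 in FPKM without a filter) were higher. USP28 was lower (-0.17, adjusted p = 0.0038, lost in FPKM at 0.104). MYCN, one of the 5 called higher and named here after its values were seen, had 0.546, 0.677 and 0.423 CPM in MS023 libraries, against 0.125, 0.0217 and 0.0648 CPM in DMSO libraries. It passed the filter through its MS023 libraries alone and was near 0 in DMSO, so its call is not read and its fold change is not given. Between MS023 and GSK591, MXD3 (1.14) and MYCL (0.99) were higher and PVT1 (-1.09) and MXD1 (-0.69) lower.

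**Figure D4:**
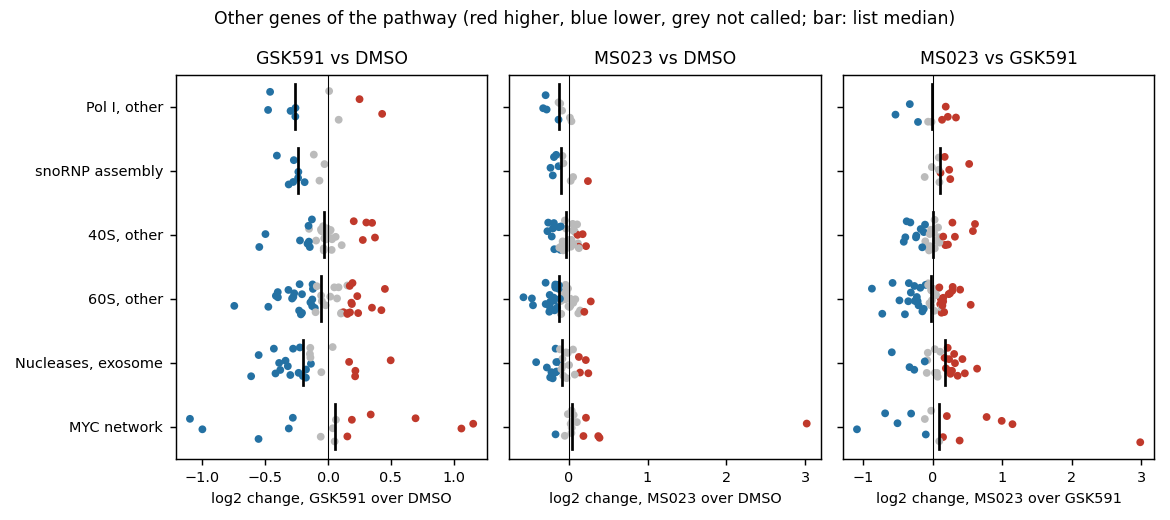
Fitted log2 change of the 137 other pathway genes tested, by list and comparison, with red points called higher, blue points called lower and grey points not called; the black bar is the list's median. With GSK591 the bars of polymerase I, snoRNP assembly and nuclease lists lie at -0.26, -0.24 and -0.20. The far right point of the MYC network with MS023 is MYCN, whose position is not read because it was near 0 in DMSO. Its position in the comparison with GSK591 is not read either.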

How the data were processed

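RNA of 9 libraries (3 each for GSK591, MS023 and DMSO) was measured by sequencing after depletion of ribosomal RNA. The authors deposited raw read counts per gene for all libraries and, for each library, FPKM values in the layout of Cufflinks gene tables, per the file headers. The submitters' processing notes name cutadapt, STAR, featureCounts, DESeq2 and hg19; for versions, annotation and strand setting, the sources used here give nothing. Symbols and positions came from the FPKM tables, matched to counts by identifier (48427 of 51796).

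Counts were analysed with edgeR 4.0.16 in R 4.3.3: filterByExpr (minimum count 10, minimum total 15; 18292 genes kept), TMM scaling, and the quasi-likelihood test with group as the only term over all 9 libraries. P-values were two-sided and adjusted by Benjamini-Hochberg over all genes tested, with a threshold of 0.05. CPM are counts per 1000000 after TMM; errors of log2 changes are standard errors. Depth was 31398075 to 51244525 counts; PCR copies are not independent molecules. FPKM were tested as log2(FPKM + 1) with limma 3.58.1, keeping genes at FPKM 1 or more in 3 libraries; this scale understates changes of low genes. Other alternatives were RLE or total-count scaling, no filter, DESeq2 1.42.0, a replicate block, each library left out, only the 6 libraries compared, leaving out DMSO replicate 1 and GSK591 replicate 3, an adjusted p of 0.01, a pseudocount of 0.1 and no FPKM filter. The fit was also run on counts simulated with known changes from its own means and spread, which cannot show how the real libraries vary. Replicates of a group differed by more than counting noise.

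Members, role groups and the lists of other pathway genes were chosen with earlier results of these data known. All members may be named. Values in every library are given for MYC, POLR1A, FBL, NCL, NPM1 and the members with the highest and lowest change of each role in each comparison with DMSO, and, added after their values were seen, for NOP56, NOP58, WDR3, UTP20, PES1, BOP1, WDR12 and MYCN. Of other lists, up to 2 called genes each way per comparison are named, by size of change, at a mean of 1 CPM or more. Promoters and motifs used RefSeq windows, and overlaps and snoRNA genes GENCODE release 29 (GRCh38), matched by identifier, BOP1 by symbol.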

Additional observations from a re-analysis of the deposited data

How the results depend on the processing

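Calls kept in every alternative run, other than the stricter threshold, were 17 of 36 with GSK591, 8 of 26 with MS023 and 18 of 31 between the inhibitors. In FPKM, with GSK591, 7 members were higher with either pseudocount and 6 without the filter, against 14. Without the filter 14 were lower, against 22. All genes called with GSK591 were 8018, 8006 and 8651 (pseudocount 1, pseudocount 0.1 and no filter), against 11443. With MS023, 12 members were lower with either pseudocount and 7 without the filter, against 22. All genes called with MS023 were 5762, 5750 and 5458, against 9327. Without the filter, 10 members were lower between the inhibitors, against 18, and 23 differed among the groups, against 42. All genes called between the inhibitors were then 9429, against 11955. The FPKM runs tested other sets of genes, so these totals are not shares. POLR1D turned its direction with GSK591 in FPKM (0.088, 0.089 and 0.088 on log2(FPKM + 1), log2(FPKM + 0.1) and without the filter; adjusted p 0.151 to 0.207), and RRP8 with MS023 (-0.259, -0.281 and -0.259; adjusted p 0.0112 to 0.0312). The cause was not tested. Total counts gave 13 lower with GSK591. At an adjusted p under 0.01, 1 member was higher with MS023.

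Leaving out 1 library gave 11 to 14 higher and 17 to 23 lower with GSK591, 1 to 4 higher and 16 to 23 lower with MS023, 11 to 13 higher and 15 to 18 lower between the inhibitors, and 37 to 43 differing among the groups. Same-numbered libraries were not paired by the labels, and their deviations correlated at -0.43 to 0.258. With the replicate block, 12 members were higher and 21 lower with GSK591, 2 and 21 with MS023, and 12 and 16 between the inhibitors. Without DMSO replicate 1 and GSK591 replicate 3, they were 13 and 20, 3 and 23, and 12 and 17. Sign changes of 75 differences uncalled in both settings were not read. Of the other pathway genes, FPKM gave 17 higher with GSK591, against 30, and 9 higher and 30 lower with MS023, against 16 and 53. Between the inhibitors it gave 25 lower, against 40. All genes called on log2(FPKM + 1) fell as well, to 8018 with GSK591, 5762 with MS023 and 8343 between the inhibitors. The lowest count behind a member was 419, and the effect of depth on the calls was not tested.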

Other observations

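In GENCODE 29 (GRCh38), 8 of the 46 genes held 32 snoRNA or related small RNA genes on their own strand, where 274 of 19969 protein-coding genes (1.37%) held any. TAF1D held 8, GNL3 6, NOP56 5, NOP58 4, WDR43 3, NCL 3, DKC1 2 and POLR1C 1. With GSK591 all 8 were called, 3 higher (TAF1D, POLR1C and WDR43) and 5 lower. Among the 38 other members 11 were higher and 17 lower (73.7% called), beside 62.6% of all genes tested, 30.1% higher and 32.4% lower. With MS023, none of the 8 was higher and 2 were lower (TAF1D and NOP56, 25.0% called). Among the 38 others 4 were higher and 20 lower (63.2% called), beside 51.0% of all genes tested, 25.1% higher and 25.9% lower. The difference between these subsets was not tested.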
